A study of Mus musculus with 6 samples.

Results

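Ccl2, Ccl7, Ccl12 and Ccl8 are the mouse genes of the monocyte chemoattractant proteins, the group of CC chemokines defined by the receptor CCR2. They were chosen by name, as the probes for biological transcripts that the scanner files assign to 1 of these 4 genes. Each gene had 1 probe, so 4 of the 56605 probes on the array, and 4 of 37325 genes, are described here, and all 4 passed the filter on dim probes. The RNA came from bone marrow monocytes of C57BL/6J mice aged 6 to 8 weeks, isolated on magnetic columns. The 3 IFN-beta samples received 100 U of mouse IFN-beta, a type I interferon, beside M-CSF (20 ng/mL), which supports the survival of monocytes and their growth into macrophages, and were cultured for 60 h. The 3 control samples were cultured as long in the same dose of M-CSF alone. The labels name no genetic modification in either group, and each sample was measured on its own 1-colour Agilent array.

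The chemokines of this group are small secreted proteins that guide CCR2-bearing monocytes out of the bone marrow and into inflamed tissue. Monocytes, macrophages, fibroblasts and endothelial cells can all make them, in response to interferon, bacterial products or inflammatory cytokines. CCL2 is the best studied CCR2 ligand, CCL7 also binds CCR1 and CCR3, CCL12 is a mouse CCR2 ligand with no direct human counterpart, and mouse CCL8 also acts through CCR8. A chemokine receptor of this kind signals through inhibitory G proteins, phospholipase C and phosphoinositide 3-kinase, and is switched off by receptor kinases, arrestins and RGS proteins.

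The 4 probes lie in 1 cluster on chromosome 11, within 79.5 kb by the probe coordinates of the files (mm9). The Ccl2 probe lies at 81850650 to 81850709, the Ccl7 probe at 81860656 to 81860715, the Ccl12 probe at 81916710 to 81916769 and the Ccl8 probe at 81930108 to 81930167. No annotation of that build was used, so exon and UTR positions within the genes are not given. The promoters of Ccl12 and Ccl8, the pair whose probes lie 13.4 kb apart and whose values on the arrays differed in kind, are given from RefSeq (GRCm38.p6). Each is the 250 bases before the annotated start, on the plus strand, at chr11:82101595-82101844 for Ccl12 and chr11:82114935-82115184 for Ccl8, with the matches to TATAAAA and TTTCATTTC in capitals.
Ccl12: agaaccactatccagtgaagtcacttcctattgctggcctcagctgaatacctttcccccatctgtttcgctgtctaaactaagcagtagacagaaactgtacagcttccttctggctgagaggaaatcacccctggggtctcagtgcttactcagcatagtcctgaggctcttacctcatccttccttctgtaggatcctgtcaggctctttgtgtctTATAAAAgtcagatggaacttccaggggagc
Ccl8: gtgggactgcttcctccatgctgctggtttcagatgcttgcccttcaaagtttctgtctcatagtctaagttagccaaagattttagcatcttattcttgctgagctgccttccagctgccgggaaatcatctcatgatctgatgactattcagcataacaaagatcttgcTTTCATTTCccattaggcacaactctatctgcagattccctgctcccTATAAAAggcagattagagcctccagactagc
Both windows hold TATAAAA, the letters of a TATA box, starting 31 bases before the start in Ccl12 and 32 bases before it in Ccl8. Searched on the sense strand only, those letters stood in 3.02% of the 250-base windows of 32851 promoters. TTTCATTTC is a match on the minus strand to GAAANGAAA, a spacing variant of the interferon-stimulated response element. It begins 79 bases before the Ccl8 start, whereas in Ccl12 the same letters lie only past the start, from base 29 to base 37. GAAANGAAA, searched on both strands, stood in 2.68% of all 250-base windows, and TTTCATTTC itself in 0.581%. TTTCATTTC is 1 spelling of that motif, the one present in the Ccl8 window. Its lower share follows from that choice, and 2.68% is the background of the motif. No match to the canonical interferon-stimulated response element, to the STAT motif TTCNNNGAA or to the NF-kappaB motif was found in either window on either strand, against 2.98%, 7.02% and 7.25% of all windows. Over the aligned part of the windows 161 of 217 bases were identical (74.2%), and the longest shared run was 8 bases.

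Because these genes are relatives, the letters of the 60-base probes were also compared. The longest run shared by any pair was 13 bases, between the Ccl12 and Ccl8 probes, and the other pairs shared 5 or 6 bases. The windows of 30 probe bases that hold this run are shown, with the run in capitals.
Ccl12 probe, bases 1 to 30: tCCTTGAACCTTCAtgtctaggctgagagt
Ccl8 probe, bases 16 to 45: ttctgcagCCTTGAACCTTCAcacctgagt
No probe assigned to another gene shared a run of 16 bases with any of the 4 probes.

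Levels are log2 of the processed signal of the probe minus the array's 75th percentile, so that 0 is the level of that percentile and 1 unit is a factor of 2. Such levels compare arrays for 1 probe and do not rank genes, since probes differ in brightness. The 75th percentile was 352, 336.8 and 349.8 on the IFN-beta arrays, against 791.1, 764.6 and 446.2 on controls 1, 2 and 3, and between 49% and 63.9% of probes lay well above background. Pairs of arrays were compared by the median absolute deviation of their differences in level, scaled to match a standard deviation. It covered the 17537 genes well above background on all 6 arrays, so genes dim on any array were left out. By this measure controls 1 and 2 were much alike (0.11, against 0.241 to 0.308 between IFN-beta arrays). Control 3 differed from controls 1 and 2 by 0.332 to 0.352 and from the IFN-beta arrays by 0.474 to 0.511. The labels do not say whether controls 1 and 2 were separate RNA preparations. Averaged into 1 control sample they gave log2 fold changes of 2.10 for Ccl2, 4.34 for Ccl7, 6.41 for Ccl12 and 2.78 for Ccl8 (limma adjusted p = 0.00316, 2.93e-04, 1.51e-04 and 0.418), and as 1 preparation the comparison with controls 1 and 2 would rest on 1 control sample. The 17 fibroblast markers examined had a summed signal of 2.41 to 2.83 times the 75th percentile on the IFN-beta arrays, against 504, 569 and 1.12 times on controls 1, 2 and 3. Each result of the 4 chemokine genes is therefore also given against control 3 alone and against controls 1 and 2. The called pathway genes that are named are given against control 3 alone as well. Cell type markers are counted against the 3 controls unless stated otherwise. Monocyte and macrophage markers, in contrast, were above background on every array for 10 of 10 genes. Whether replicates were separate mice or cultures is not stated in the labels. The p-values therefore reflect how far these particular samples spread, and with so few arrays their precision is limited. In such bulk RNA, fewer cells of a type and less RNA per cell cannot be told apart.

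Of the 4 genes, Ccl2, Ccl7 and Ccl12 rose with IFN-beta (limma, adjusted p under 0.05) and Ccl8 was not called. Of the 19501 genes tested, 12.7% were higher with IFN-beta and 7.94% lower, and the median log2 fold change was 3.36 over the 4 genes and 0.11 over all genes tested. In the same 3 genes the lowest IFN-beta array lay above the highest control, which held in that direction for 24.8% of genes tested. Against control 3 alone the fit called Ccl2, Ccl7, Ccl12 and also Ccl8 higher, with 5.3% of genes tested called higher, but Ccl8 was not well above background on that array and passed the filter only through the IFN-beta arrays, so its call there is a description. Against controls 1 and 2 the same 3 genes were higher, with a background of 33.9%, and Ccl8 was lower, with a background of 15.1%. The interferon response itself was present: Ifit1, Isg15, Mx1, Oas1a and Irf7, all interferon-induced, rose by 4.02 ± 0.23, 3.80 ± 0.25, 4.59 ± 0.26, 2.34 ± 0.22 and 4.33 ± 0.29 on the log2 scale (standard error, 3 arrays a group), with limma adjusted p between 9.06e-05 and 5.59e-04. These differences were 3.53, 3.25, 4.02, 1.90 and 3.73 against control 3 alone.

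**Figure D1:**
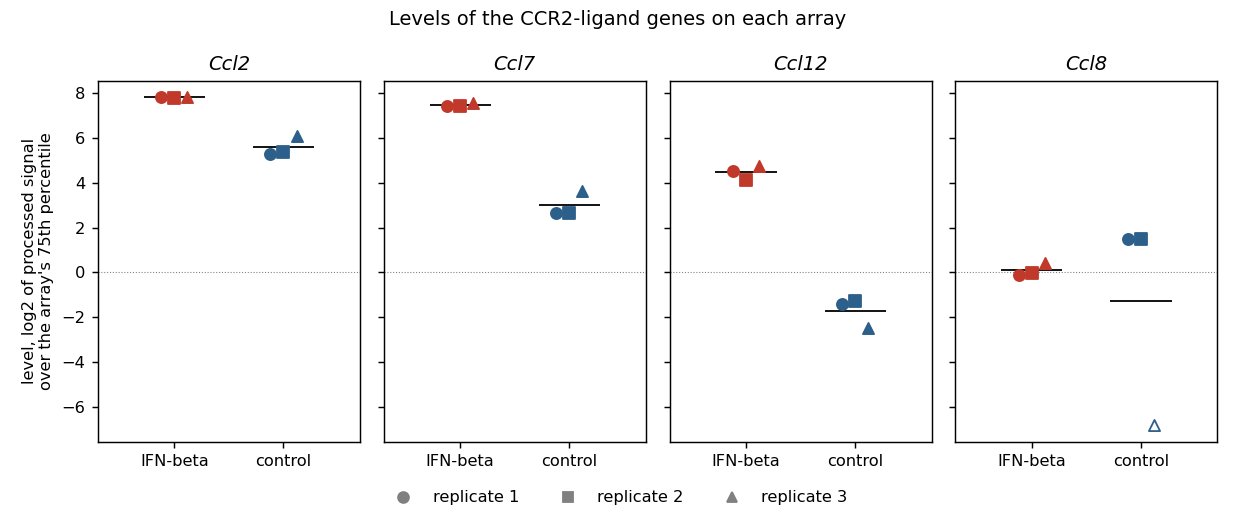
Level of each gene on each array (vertical axis, log2 of processed signal over the array's 75th percentile), with the 3 IFN-beta arrays left of the 3 controls; the black line is the mean of the group and the open marker is a probe not well above background. Ccl2, Ccl7 and Ccl12 lay higher on every IFN-beta array than on every control, whereas the Ccl8 values of the IFN-beta arrays lay between those of controls 1 and 2, at 1.48, and control 3, at -6.84.

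Ccl2, the prototype CCR2 ligand, had levels of 7.82, 7.81 and 7.82 on the IFN-beta arrays, against 5.30, 5.36 and 6.11 on controls 1, 2 and 3. The IFN-beta arrays lay together and above every control, and the highest control was control 3. The group means were 7.82 ± 0.003 with IFN-beta and 5.59 ± 0.45 in controls (SD, n = 3 each), a 4.68-fold rise (log2 fold change 2.23 ± 0.24, standard error; 95% interval 1.68 to 2.78; limma adjusted p = 9.22e-04). Ccl2 was already bright without IFN-beta: its processed signal was 79500, 75700 and 78900 on the IFN-beta arrays, against 31200, 31400 and 30800 on the controls. Before scaling, then, the 3 controls were nearly level for Ccl2, and the gap of control 3 to the other controls arose with the division by the 75th percentile. No member probe was saturated on any array. The unscaled fold was 2.51, and with scaling on the spike-in controls it was 3.88.

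The rise of Ccl2 was 3.27-fold against control 3 alone (log2 fold change 1.71, limma adjusted p = 0.0065) and 5.6-fold against controls 1 and 2 (2.49, limma adjusted p = 4.32e-05). All 3 controls and IFN-beta 1 shared slide 1, and slide 2 held IFN-beta 2 and 3 alone. With slide as a block the log2 fold change of Ccl2 was 2.23 (limma adjusted p = 0.0247), and within slide 1 it was 2.23 with the call lost (limma adjusted p = 0.0791, 1 IFN-beta array against 3 controls).

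Ccl7, a ligand shared by CCR2, CCR1 and CCR3, had levels of 7.42, 7.44 and 7.59 on the IFN-beta arrays, against 2.66, 2.67 and 3.63 on controls 1, 2 and 3. As for Ccl2, control 3 was the highest control, and the groups lay far apart. The means were 7.49 ± 0.095 with IFN-beta and 2.99 ± 0.557 in controls (SD, n = 3 each), a 22.6-fold rise (log2 fold change 4.50 ± 0.28, standard error; 95% interval 3.85 to 5.14; limma adjusted p = 1.14e-04). It was 14.5-fold against control 3 alone (3.86, limma adjusted p = 9.20e-04) and 28.2-fold against controls 1 and 2 (4.82, limma adjusted p = 1.47e-05). Within slide 1 the log2 fold change was 4.43 (limma adjusted p = 0.0325), and with slide as a block it was 4.43 (limma adjusted p = 0.00589). Of all genes tested, 33 had a higher log2 fold change than Ccl7.

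Ccl12, the CCR2 ligand found in the mouse, had levels of 4.52, 4.15 and 4.77 on the IFN-beta arrays, against -1.42, -1.27 and -2.51 on controls 1, 2 and 3. Here control 3 was the lowest control, the opposite of its place for Ccl2 and Ccl7. The means were 4.48 ± 0.31 with IFN-beta and -1.73 ± 0.674 in controls (SD, n = 3 each), a 74.2-fold rise (log2 fold change 6.21 ± 0.34, standard error; 95% interval 5.41 to 7.02; limma adjusted p = 9.06e-05). Only 10 of the genes tested had a higher log2 fold change. The rise was 127-fold against control 3 alone (6.99, limma adjusted p = 5.62e-04) and 56.8-fold against controls 1 and 2 (5.83, limma adjusted p = 2.94e-05). Within slide 1 it was 6.25 on the log2 scale (limma adjusted p = 0.0302), and with slide as a block 6.25 (limma adjusted p = 0.00485). The raw probe signal was 244, 186 and 383 times the local background on the IFN-beta arrays, against 8.82, 9.62 and 3.1 times on controls 1, 2 and 3, so the control level of Ccl12, dimmest on control 3, is the less precise side of this fold. With normexp background correction the fold against control 3 alone was 73.7.

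Ccl8, the fourth chemokine, had levels of -0.10, -0.03 and 0.43 on the IFN-beta arrays, against 1.48, 1.48 and -6.84 on controls 1, 2 and 3. The IFN-beta arrays lay close together, between controls 1 and 2 above them and control 3 below, so the groups overlapped. The means were 0.10 ± 0.29 with IFN-beta and -1.29 ± 4.8 in controls (SD, n = 3 each), and the log2 fold change of 1.39 ± 2.04 (standard error; 95% interval -3.37 to 6.16) was not called (limma adjusted p = 0.653). That interval holds both a fall and a rise of several-fold. The processed signal was 329, 330 and 471 on the IFN-beta arrays, against 2210, 2130 and 3.9 on controls 1, 2 and 3.

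The direction of Ccl8 depended on which controls were used. On control 3 its probe was not well above background, with a raw signal 1.41 times the local background, against 11.1, 12.9 and 18.4 times on the IFN-beta arrays and 76.2 and 70.6 times on controls 1 and 2. Against control 3 alone Ccl8 was therefore higher with IFN-beta by a bound of 33.8-fold, for processed signal. That bound takes the lowest signal well above background of any probe on that array, at -4.98. It is no detection limit of the Ccl8 probe, and the fold with normexp, given below, was smaller. The limma adjusted p of 5.50e-04 belongs to the fitted log2 difference of 6.94 from that single dim value and is no test of the bound. Against controls 1 and 2 it was 2.6-fold lower (log2 fold change -1.38, limma adjusted p = 0.00261). Both directions held under each of the scalings tried, but with normexp background correction, which adds an offset of 50 to every signal, the difference from control 3 was 2.78 on the log2 scale (6.89-fold). Within slide 1 its log2 fold change was 1.20 (limma adjusted p = 0.881), and with slide as a block it was 1.20 (limma adjusted p = 0.85).

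**Figure D2:**
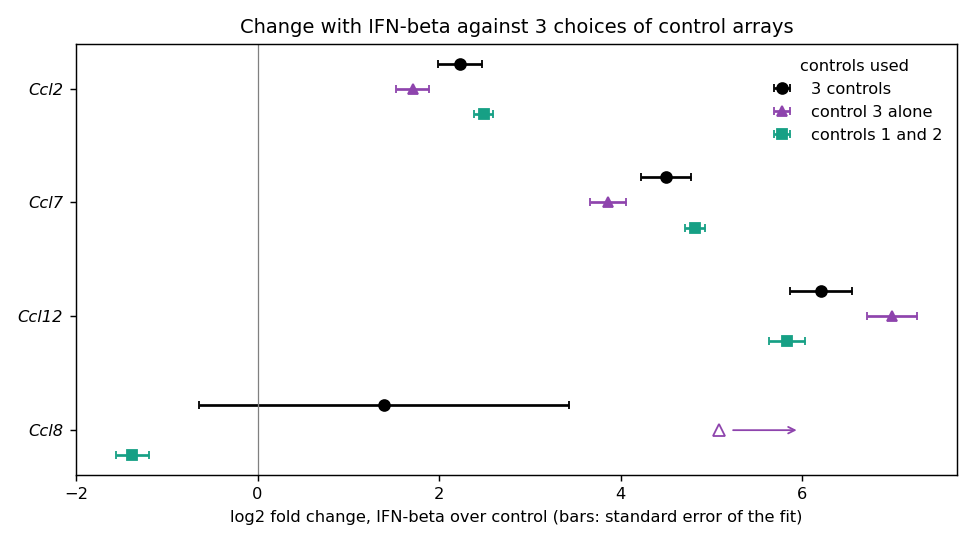
Log2 fold change of each gene, IFN-beta over control (horizontal axis), against 3 choices of control arrays, with bars for the standard error of the fit; the open triangle with an arrow is a lower bound. Ccl2, Ccl7 and Ccl12 stayed right of 0 for each choice. Ccl8 lay at -1.38 against controls 1 and 2, and its bound for processed signal against control 3 was 5.08.

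The fibroblast markers moved with Ccl8 among the controls. All 17 were well above background on controls 1 and 2, against 6 on control 3, and 7 of the 17 were above background on all 3 IFN-beta arrays. Their median level was -5.59, -5.07 and -4.33 on the IFN-beta arrays, against 3.92, 4.31 and -6.01 on controls 1, 2 and 3. Of the 7 markers tested, 0 were called against the 3 controls (limma, and 0 at an unadjusted p under 0.05), all 7 were lower against controls 1 and 2, and 3 were higher against control 3. On the IFN-beta arrays and control 3 the summed markers were far lower than on controls 1 and 2, but they were not level. The sum was 2.41 to 2.83 on the IFN-beta arrays and 1.12 on control 3, in the units given above. Against control 3 alone the median log2 fold change of the 7 tested markers was 0.98. Among these arrays Ccl8 was well above background on the IFN-beta arrays only, so Ccl8 and the summed markers differed in the same direction. The part of fibroblast RNA in the Ccl8 values was not tested. For Ccl2 and Ccl7 the scaled level on controls 1 and 2, where these markers were bright, was lower than on control 3 by 0.78 and 0.96, and for Ccl12 control 3 stood at -1.16 relative to controls 1 and 2.

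**Figure D3:**
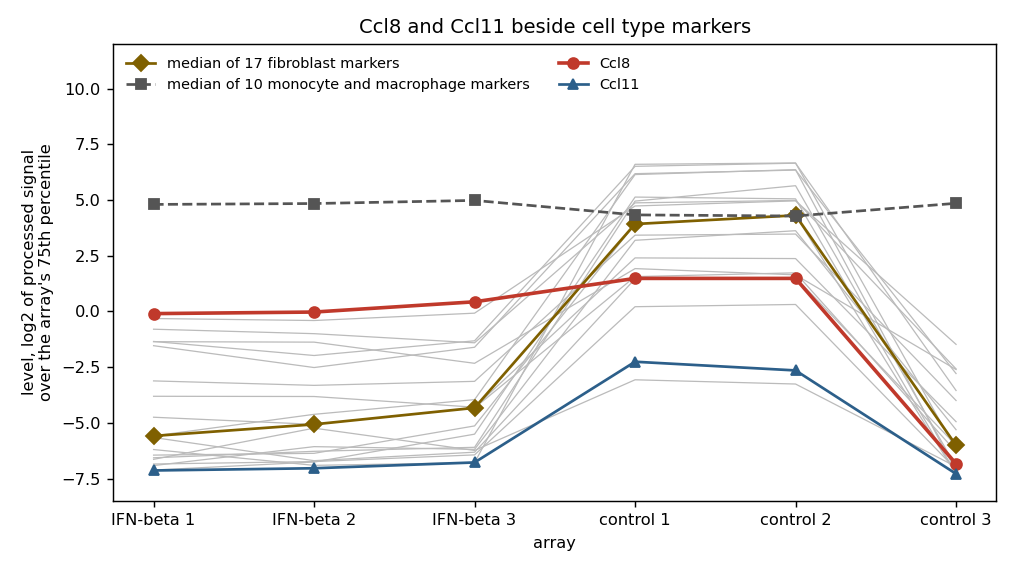
Levels on each array (vertical axis, log2 of processed signal over the array's 75th percentile) of Ccl8, of Ccl11, and of the medians over 17 fibroblast and 10 monocyte and macrophage markers; thin grey lines are the single fibroblast markers. The fibroblast median, at 3.92 and 4.31 on controls 1 and 2, lay from -5.59 to -4.33 on the IFN-beta arrays and at -6.01 on control 3. Ccl8 lay from -0.10 to 0.43 on the IFN-beta arrays and at -6.84 on control 3.

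The pattern of Ccl8 was set beside that of all genes that, like it, were well above background on controls 1 and 2 and not on control 3. Of 3290 such genes, 168 (5.11%) were above background on all 3 IFN-beta arrays, as Ccl8 was, and 2514 were above background on none of them. Ccl11, the eotaxin gene that lies between Ccl7 and Ccl12 (probe at 81876369 to 81876428), had levels of -7.14, -7.04 and -6.78 on the IFN-beta arrays, against -2.26, -2.65 and -7.29 on controls 1, 2 and 3. Like Ccl8, Ccl11 was not well above background on control 3, but unlike Ccl8 it was not well above background on any IFN-beta array either, and it was not tested.

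Other cell types the sort could hold were also examined. Basophil and mast cell markers had a summed signal of 40.1 to 59.6 times the 75th percentile on the IFN-beta arrays, against 3.86 to 6.64 times on the controls, and 6 of 6 were called higher, also against control 3 alone. Neutrophil markers summed to 583 to 720 times with IFN-beta, against 335 to 446 times in controls, with 5 of 8 called higher. Their median log2 fold change was 1.27, or 0.91 against control 3 alone. Endothelial markers summed to 8.53 to 9.10 times with IFN-beta, against 16.4, 13.3 and 3.41 times on controls 1, 2 and 3. Most of the IFN-beta sum was Kdr, the 1 of the 4 tested that was called higher. Its levels were 2.92, 2.84 and 2.86 with IFN-beta, against 0.77, 0.66 and 1.34 on controls 1, 2 and 3. The median endothelial marker level was -3.78, -4.09 and -4.47 with IFN-beta, against 0.53, 0.16 and -4.11 on controls 1, 2 and 3. Plasmacytoid dendritic markers summed to 24.1 to 29.9 times with IFN-beta, against 24.0 to 36.1 times in controls, and 3 of 4 were called higher. Siglech, which held most of each sum, was at -0.61 on the log2 scale and not called (-0.25 against control 3 alone). Ccr9, Klk1 and Cox6a2 rose by 1.35, 1.91 and 3.15, or 0.80, 1.76 and 2.83 against control 3 alone. T and NK, B and erythroid markers summed to at most 2.48 times on any array, and Ncr1 and Cd79a were not well above background on any array. The part of these cells in the rises of Ccl2, Ccl7 and Ccl12 was not tested. Monocyte and macrophage markers summed to 608 to 618 times with IFN-beta, against 465, 446 and 667 times on controls 1, 2 and 3. Of these 10 markers, 1 was called higher and 3 lower, with a median log2 fold change of 0.24, or -0.18 against control 3 alone.

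The 3 genes that rose did so by unequal factors. Within an array the difference of 2 levels does not depend on scaling, and its change between groups compares the genes' rises. The rise of Ccl7 exceeded that of Ccl2 by 2.27 on the log2 scale (4.83-fold; SD of the within-array difference 0.09 with IFN-beta and 0.11 in controls, n = 3 each). Ccl12 exceeded Ccl2 by 3.99 (15.9-fold; SD 0.31 with IFN-beta and 1.12 in controls) and Ccl7 by 1.72 (3.28-fold; SD 0.25 with IFN-beta and 1.23 in controls). In each of these 3 pairs the within-array differences of the groups did not overlap, whereas in each pair with Ccl8 they did. The 3 pairs are formed from the same 3 genes and are not separate results. The share of other gene pairs without overlap was not determined. The excess of Ccl12 over Ccl7 was 3.13 against control 3 alone and 1.01 against controls 1 and 2.

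The genes whose profile over the 6 arrays lay closest to each chemokine were looked up by the root mean square difference of centred levels. The search covered the 14483 of the 19501 genes tested that had a current RefSeq symbol. Nearest to Ccl2 were Trim34a, Nlrc5 and Tor3a, with differences of 0.05, 0.06 and 0.06. Nearest to Ccl7 were Mx1, Usp18 and Hsh2d, at 0.09, 0.10 and 0.13; Mx1 encodes an antiviral GTPase and Usp18 the protease that removes ISG15. Nearest to Ccl12 were Rab15, Apol9b and Apol9a, at 0.16, 0.29 and 0.32, which like Ccl12 were lower on control 3 than on controls 1 and 2. Closest to Ccl8 were Kcnd3, Pla1a and Lancl3, at 0.96, 0.98 and 0.98 (Pearson's r 0.967, 0.958 and 0.995, a description). These distances rest largely on control 3, where Ccl8 stood at -6.84, not well above background, and the 3 genes at -7.20, -7.11 and -7.17. By the same measure the chemokine genes differed among themselves by 1.14 for Ccl2 and Ccl7, 1.12 for Ccl7 and Ccl12 and 2.10 for Ccl2 and Ccl12, and Ccl8 differed from Ccl2, Ccl7 and Ccl12 by 3.07, 3.46 and 3.39.

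Around the chemokines, 59 genes of their pathway were listed, of which 53 were tested. Of these, 16 rose and 2 fell (34% called, against 20.6% of all genes tested), with a median log2 fold change of 0.41 beside 0.11 over all genes. With spike-in scaling 11 rose and 4 fell, beside 1007 and 2365 of all 19501 genes tested, with a median of 0.14 beside -0.16 over all genes. Against control 3 alone the median was 0.13, beside -0.08 over all genes. Against controls 1 and 2, 29 were called higher and 5 lower, where 33.9% of all genes tested were called higher and 15.1% lower. Among the receptors, 2 of the 5 tested rose, beside 12.7% of all genes tested. Ccr2, the receptor that names the group, had levels of 1.37, 0.86 and 0.65 on the IFN-beta arrays, against 1.53, 1.55 and 2.33 on controls 1, 2 and 3. All IFN-beta arrays were below all controls, as for 16.4% of genes tested, but the log2 fold change of -0.84 ± 0.28 (standard error) was not called (limma adjusted p = 0.0729; -1.37 against control 3 alone, limma adjusted p = 0.0551).

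Ccr3, the eotaxin receptor of eosinophils and basophils, which also binds CCL7, rose by 2.51 ± 0.25 (limma adjusted p = 7.06e-04; 2.27 against control 3 alone), beside the higher basophil and mast cell markers given above. Ccr1, another CCL7 receptor, was at -0.91 ± 0.30 (limma adjusted p = 0.0673) and Ccrl2, a chemerin-binding receptor, at 0.22 ± 0.16 (limma adjusted p = 0.368). Ccr8, a receptor of mouse CCL8, and the scavenging receptor genes Ackr1 and Ackr2 were above background on controls 1 and 2 only. They were above background neither on control 3 nor on any IFN-beta array, and were not tested.

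Among 19 genes of signalling from CCR2, 4 rose and 1 fell, beside 12.7% and 7.94% of all genes tested. The median of these 19 was 0.41, or 0.05 against control 3 alone. Jak2, a kinase reported to bind activated CCR2, rose by 1.85 ± 0.21 (limma adjusted p = 0.0012; 1.46 against control 3 alone), and Rgs1, which shortens G protein signals, by 1.65 ± 0.23 (limma adjusted p = 0.00294; 1.19 against control 3 alone). The phospholipase C genes parted: Plcb2 rose by 0.97 ± 0.23 (limma adjusted p = 0.0263) and Plcb3 fell by 1.04 ± 0.15 (limma adjusted p = 0.0041). Vav1, an exchange factor for Rac, rose by 0.90 ± 0.20 (limma adjusted p = 0.0192). Against control 3 alone Plcb3 was at -0.93 (limma adjusted p = 0.0464), Plcb2 at 0.49 (limma adjusted p = 0.227) and Vav1 at 0.54 (limma adjusted p = 0.17).

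Of 18 genes that induce these chemokines or govern the decay of their RNA, 5 rose, beside 12.7% of all genes tested. The median of these 18 was 0.28, or 0.10 against control 3 alone. Irf7 rose by 4.33 ± 0.29 (limma adjusted p = 1.54e-04), Stat2, a transcription factor activated at the interferon receptor, by 2.78 ± 0.23 (limma adjusted p = 3.35e-04), and Irf9, its DNA-binding partner, by 1.18 ± 0.19 (limma adjusted p = 0.0063). Irf1 rose by 1.25 ± 0.19 (limma adjusted p = 0.00447). Against control 3 alone the log2 fold changes of Irf7, Stat2 and Irf1 were 3.73, 2.31 and 0.93 and still called, and Irf9, at 0.84, was not called (limma adjusted p = 0.0619). The other 13, the NF-kappaB genes and the RNA decay factors of the list among them, were not called.

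In the protein processing list, 1 of the 5 genes tested rose and 1 fell, beside 12.7% and 7.94% of all genes tested. Qpctl, a glutaminyl cyclase that modifies the first residue of these chemokines, rose by 0.97 ± 0.18 (limma adjusted p = 0.0102), or 0.71 against control 3 alone (limma adjusted p = 0.106). Mmp14, a membrane metalloproteinase, was not well above background on any IFN-beta array and was lower than in controls by a bound of 6.97-fold. The limma adjusted p of 0.0277 belongs to the fitted log2 fold change of -3.12 from those dim values and is no test of the bound. Its level was -0.75 and -1.01 on controls 1 and 2, where the fibroblast markers were bright, and -3.90 on control 3, against which it was not called (limma adjusted p = 0.0643). The metalloproteinase genes Mmp2 and Mmp3, which lay above background on controls 1 and 2 but not on control 3, were not tested.

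Among the 6 tested of 7 other CC chemokine genes on chromosome 11, 4 rose, beside 12.7% of all genes tested. The median of these 6 was 0.85, or 0.53 against control 3 alone. Ccl4, which attracts monocytes and T cells, rose by 1.60 ± 0.22 (limma adjusted p = 0.00273), and Ccl6, a chemokine of myeloid cells, by 1.19 ± 0.17 (limma adjusted p = 0.0035). Ccl5, a chemokine of T cells and monocytes, rose by 0.66 ± 0.16 (limma adjusted p = 0.0296). Ccl1, a CCR8 ligand whose probe lies at 81990451 to 81990510 beyond Ccl8, rose by 0.99 ± 0.28 (limma adjusted p = 0.0474). Ccl4 and Ccl6 were at 1.17 and 1.21 against control 3 alone and still called, whereas Ccl5, at 0.53 (limma adjusted p = 0.189), and Ccl1, at 0.53 (limma adjusted p = 0.243), were not. All 4 had smaller log2 fold changes than Ccl2. Of the 18 called genes of the lists, 12 kept the call whichever 1 array was left out, and 8 kept it with slide as a block. For Plcb2, Mmp14, Ccl1 and Ccl5 the removal of any 1 array except control 3 ended the call, for Vav1 that of IFN-beta 2, IFN-beta 3, control 1 or control 2, and for Qpctl that of control 1.

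**Figure D4:**
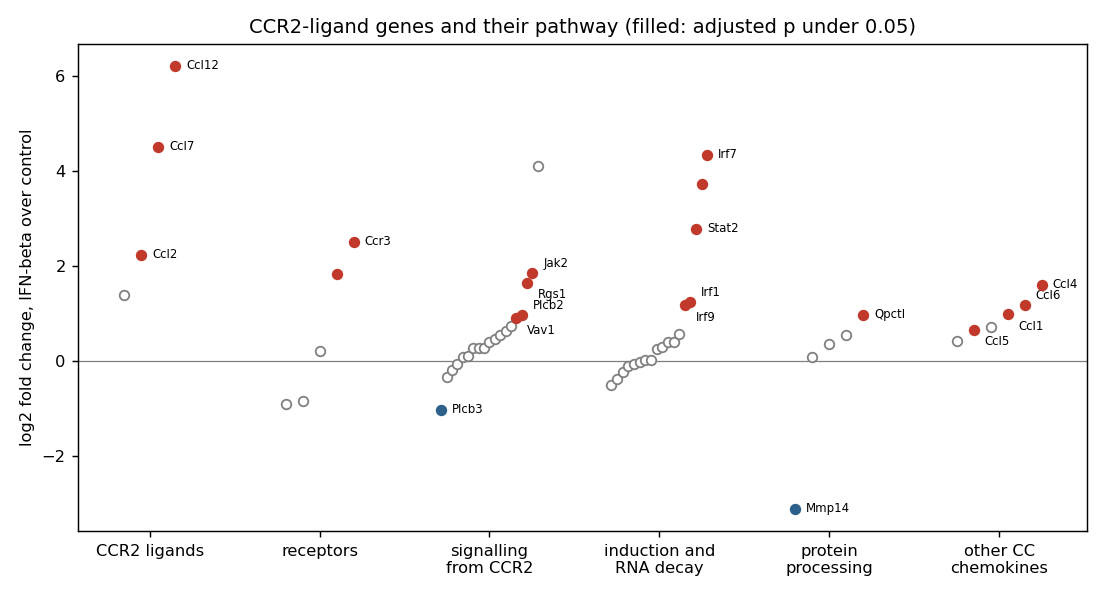
Log2 fold change, IFN-beta over control (vertical axis), of the 4 chemokine genes and of the 53 tested genes of the pathway lists, sorted within each list; filled points had a limma adjusted p under 0.05, and those described in the text are labelled. Ccl12 and Ccl7 lay highest of the filled points, at 6.21 and 4.50, and the open point at 4.10 in the signalling list is Gnai3, whose probe was dim on control 1 only.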

How the data were processed

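Cy3-labelled RNA of 3 IFN-beta and 3 control samples was hybridised, 1 sample per array. Per the file headers, the intensity of each spot (the processed signal in the deposited scanner output) was read by Agilent Feature Extraction 12.0.3.1 and carries no normalization between arrays. A deposited matrix of log2 values followed the scanner output of the same arrays (r 0.9963 to 0.9989, column medians 4.82 to 4.83, not centred per gene). Its normalization is not known, and only an alternative used it.

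Of 59305 non-control spots for 56605 probes, 135 to 174 outlier spots per array were left out, and spots of 1 probe were averaged. Levels are log2 of processed signal minus the array's 75th percentile over all non-control spots. Probes were tested where all arrays of either group, or of both, placed them well above background (29795 probes), and the probe with the highest mean stood for a gene (19501 genes). IFN-beta was compared with control by limma 3.58.1 (lmFit and eBayes, R 4.3.3, the package data.table, version 1.17.8), 2-sided, with Benjamini-Hochberg adjustment over all genes tested and a threshold of 0.05. With control 3 alone as control, the spread comes from the IFN-beta arrays, and that array is assumed to vary like them. Where no array of a group placed a probe well above background, its fold is a bound against the higher of its own value and the lowest signal well above background. That signal is the lowest of any probe on the array, so the bound holds for processed signal and is no detection limit of the single probe. Symbols came from the files and from RefSeq (GRCm38.p6), by accession for 32994 probes and by symbol for 10224, and 13387 kept the name in the file. Promoters of 2 of the 4 chemokine genes were in the RefSeq table. Sequences were handled with Python 3.11.15 and Biopython 1.88, and figures drawn with matplotlib 3.10.9. The scripts were tested on simulated data.

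The chemokine genes, the lists and the tests were chosen with earlier results of these data known. Named are the 4 chemokines, the receptors, the 3 nearest profiles of each chemokine and 5 interferon-induced check genes. In each list other than the receptors, the called genes with the lowest p are named, at most 4 a direction. Ccl11, Gnai3 and single cell type markers were named after their values were seen. Some genes that meet these criteria are not reported here. Between samples of the same replicate number the correlation of deviations was 0.07, 0.02 and 0.07. With 3 samples a group these values cannot decide whether the samples were paired. Alternatives were other normalizations (quantile, spike-in, normexp with offset 50), the deposited matrix, other filters, the mean of probes, trend and robust eBayes, array weights, replicate and slide blocks, other choices of controls, and each replicate left out.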

Additional observations from a re-analysis of the deposited data

How the results depend on the processing

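Ccl7 and Ccl12 kept their direction and their call under all 21 alternatives run, with log2 fold changes (IFN-beta over control) of 3.86 to 4.82 and 5.70 to 6.99, and Ccl2 under 20 of 21 (1.71 to 2.51), its call being lost within slide 1 (2.23, limma adjusted p = 0.0791). The 21 alternatives are not 21 separate checks of the fold changes. For genes with 1 probe, the filters, the mean of probes, the eBayes settings and the replicate block cannot alter the fold change, only its adjusted p. Slide as a block and within slide 1 rest on the same contrast, since slide 2 held IFN-beta arrays alone. Leaving out 1 array at a time gave 2.08 to 2.49 for Ccl2, 4.33 to 4.82 for Ccl7, 5.83 to 6.45 for Ccl12 and -1.38 to 2.78 for Ccl8. The sign of Ccl8 reversed without control 3 (-1.38, limma adjusted p = 0.00261) and with array weights (-1.36). It also reversed with normexp and percentile scaling (-0.02) and with normexp and quantile normalization (-0.04). Against control 3 alone the fitted value was 6.94, which rests on a single dim value on that array. A filter that asks for all 6 arrays leaves Ccl8 untested. With the replicate number as a block, which by design leaves the log2 fold changes as they were, 3342 genes and 18 list genes were called. No call of the 4 genes changed (limma adjusted p = 0.00579 for Ccl2). The number of genes called, 4018, moved to 6337 with normexp and percentile scaling, 1783 without a filter, 12885 with array weights, 1083 with slide as a block, 354 within slide 1, 1829 against control 3 alone and 1991 with controls 1 and 2 averaged, and ranged from 1864 to 9550 with 1 array left out (9550 without control 3). The 18 list genes called moved to 41 with array weights, 8 with slide as a block, 2 within slide 1 and 11 against control 3 alone, and ranged from 12 to 34 with 1 array left out (34 without control 3). Higher calls were 61.4% of all calls, 29.9% with spike-in scaling (1007 higher, 2365 lower) and 75.7% with normexp and percentile scaling, and the median over all genes was 0.11, -0.16 and 0.22 under these scalings. No called gene of the lists changed sign with spike-in scaling. The cause of these shifts was not tested. Dim signal limits Ccl8 and Ccl12 on control 3, at 1.41 and 3.1 times the local background.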
